A study of Mus musculus with 10 samples.

Results

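The light chain genes of the antibody loci were followed through 10 RNA sequencing libraries of sorted mouse B lineage cells. The members were all genes of an immunoglobulin type in the GENCODE annotation whose symbols start with Igkv, Igkj, Igkc, Iglv, Iglj or Iglc. Of 178 such genes, 112 had a transcript in the deposited files, out of 30205 genes in all. These were 102 kappa V segments, 5 kappa J segments, the kappa constant gene Igkc, 3 lambda V segments and 1 lambda constant gene, Iglc2. Igkv genes lie on chromosome 6 from 67555497 to 70704177 and Igkc from 70726435 to 70726966 (GRCm38). The lambda V segments Iglv1, Iglv2 and Iglv3 lie on chromosome 16 between 19085017 and 19260859. The 5 Iglj genes and Iglc1, Iglc3 and Iglc4 were not analysed here.

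The study asked how combined NF-kB and Notch signalling affects B cell development, transformation and plasticity. All mice were C57BL/6, each group held 2 libraries, and no age is given in the sources used here. Control cells were Wild-type marginal zone precursor B cells taken from Lymph Node. NF-kB-activated cells of the same type and site carried Rosa-NIKdeltaT3flSTOP x CD19Cre, in which Cre made in B lineage cells switches on a form of the kinase NIK. Notch-activated cells carried Rosa-Notch2ICN x CD19Cre, the Notch2 intracellular part, and are labelled marginal zone B cells of the lymph node, not precursors. Doubly activated cells were marginal zone precursors with Rosa-NIKdeltaT3flSTOP x Rosa-Notch2ICN x CD19Cre. These 4 groups are described as pre-malignant, and the lymphoma libraries hold lymphoma cells from lymphoma tissue with the same 3 alleles as the doubly activated cells. Since cell type differs along with genotype for the Notch-activated libraries, and tissue along with malignancy for lymphoma, these effects cannot be told apart. Libraries of a group carry replicate numbers, with no word on whether each is a separate animal. The p-values therefore measure only how far these libraries spread.

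Each B cell joins 1 V and 1 J segment at a kappa or a lambda locus, and the joined exon is spliced to the constant exon of that locus. The rearranged V segment is thereafter usually shared by the descendants of the cell. Different lineages can use the same V segment, so V segment use shows how RNA is spread over segments and does not count lineages. In mice the kappa locus holds many V segments and serves most B cells, while the lambda locus holds few and serves a minority. Plasma cells make far more light chain RNA per cell than resting B cells, so a V share is a share of RNA and not of cells. In these bulk samples, fewer cells using a segment and less RNA per cell cannot be told apart.

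The segments that led the kappa repertoires are shown by the last 90 bases of their germline V exon, where the V segment is joined to J. Capitals mark the 23 germline bases that follow the codon of the conserved cysteine, with which the third complementarity-determining region begins. Positions are in GRCm38 and sequences are those of the GENCODE transcripts, read in the direction of transcription. Igkv12-41 led the Notch-labelled libraries (chr6:69858420-69858509, minus strand), Igkv17-121 led the lymphoma libraries (chr6:68037229-68037318, plus strand) and Igkv6-32 came next in lymphoma (chr6:70074024-70074113, minus strand). Igkv1-135 (chr6:67610419-67610508, plus strand) was first or among the first in the doubly activated, NF-kB-activated and control libraries.
Igkv12-41: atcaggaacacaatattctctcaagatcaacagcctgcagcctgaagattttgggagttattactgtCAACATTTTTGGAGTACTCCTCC
Igkv17-121: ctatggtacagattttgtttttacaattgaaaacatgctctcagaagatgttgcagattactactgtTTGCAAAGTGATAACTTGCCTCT
Igkv6-32: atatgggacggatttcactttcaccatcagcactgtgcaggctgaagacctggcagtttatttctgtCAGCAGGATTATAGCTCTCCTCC
Igkv1-135: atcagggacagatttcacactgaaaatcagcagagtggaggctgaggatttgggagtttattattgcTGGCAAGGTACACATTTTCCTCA

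Close relatives decide how far reads can be assigned to 1 segment, so 2 pairs that matter below are set side by side, with capitals at the bases that differ. Igkv17-121 and Igkv17-127 differed at 3 of these 90 bases, as did Iglv1 and Iglv2. Over the whole transcript, Igkv17-121 shared 135 of its 320 words of 31 bases with Igkv17-127, and Igkv12-41 shared 154 of 317 with Igkv12-44. Iglv1 shared 133 of 361 words with Iglv2. Igkv6-32 shared 7 of 336 with its nearest relative in the files, Igkv6-17, while Iglv3, Iglc2 and Igkc shared 0 words with any other member in the files. Values of the first 3 pairs are therefore uncertain as to how the estimated counts were split within the pair.
Igkv17-121: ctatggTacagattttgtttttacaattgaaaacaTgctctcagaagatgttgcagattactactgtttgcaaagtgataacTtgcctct
Igkv17-127: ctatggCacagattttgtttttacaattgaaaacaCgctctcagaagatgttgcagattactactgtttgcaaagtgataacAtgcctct
Iglv1: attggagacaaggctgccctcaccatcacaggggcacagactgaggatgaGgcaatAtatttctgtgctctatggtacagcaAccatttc
Iglv2: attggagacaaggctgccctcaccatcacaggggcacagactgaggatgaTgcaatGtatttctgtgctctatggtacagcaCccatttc

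Libraries held 16380889 to 23102081 estimated counts. The gene encoding NIK, Map3k14, stood at 217 and 220 CPM in NF-kB-activated and 244 and 255 in doubly activated libraries, above the 103 and 130 of control. Notch2 stood at 284 and 278 CPM in the Notch-activated libraries, below the 652 and 690 of control, so on this gene these libraries went against their label, and they are called Notch-labelled from here on. Dtx1, a known Notch target, ran with the label there, at 1022 and 960 CPM against 719 and 681 in control. Notch2 stood at 702 and 753 CPM in doubly activated libraries. In lymphoma, which carries the same alleles as the doubly activated cells, Notch2 stood at 154.7 and 178.5 CPM and Map3k14 at 152.6 and 153.2. Notch2 below control was thus not particular to the Notch-labelled libraries. Since the allele holds only the intracellular part of the gene, summed counts of the gene test its presence only weakly. The Notch-labelled libraries also stood apart in markers of other cells. The 5 stroma markers summed to 632 and 854 CPM there against 1.51 to 3.70 in the other 8 libraries, and the 6 B cell markers to 2999 and 2788 CPM against 8731 and 8639 in control. Of the 6 marginal zone markers, Cr2 stood at 111 and 110 CPM in the Notch-labelled and at 28.5 and 23.3 in the lymphoma libraries, against 1874 to 2940 in the other 6. The others were not low in the same way. In Notch-labelled libraries Cd1d1 stood at 237 and 236 CPM (179 and 126 in control), S1pr3 at 121 and 124 (113 and 87.5), Cd9 at 144 and 138 (35.9 and 25.02) and Cd24a at 579 and 548 (582 and 405). In lymphoma Cd9, Cd24a and Dtx1 lay above both control libraries, Cd1d1 within their range and S1pr3 below it. Neutrophil markers summed to 408 and 123 CPM in NF-kB-activated libraries, 0.308 and 16.6 in control and 5.74 and 0.262 in doubly activated ones. The part of these differences in the results below was not tested. Where the call of a named segment ended without the Notch-labelled pair, this is stated with it.

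Light chain genes held a small and similar share of the RNA in precursor cells and a several times larger share in lymphoma. The share of all estimated counts in the members was 0.187% and 0.194% in control libraries, 0.230% and 0.220% with NIK, 0.213% and 0.207% with both alleles, 0.121% and 0.119% in the Notch-labelled pair and 1.18% and 1.13% in lymphoma. No value of one group fell within the range of another. An exact permutation test over all 945 ways to split the 10 libraries into 5 pairs, one-sided for a larger spread between groups, gave p = 0.00106, the smallest it can give (0.00212 after Benjamini-Hochberg adjustment over 4 such tests).

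The rise in lymphoma was of kappa. Igkc stood at 6016 and 5324 CPM in lymphoma against 699 and 665 in doubly activated libraries, and the sum of all Igkv genes at 5977 and 5904 against 739 and 702. Both lymphoma values lay far above both doubly activated ones. As class sums in edgeR's quasi-likelihood test, Igkc rose by a log2 value of 3.06 ± 0.10 (SE, adjusted p = 5.53e-10) and Igkv by 3.04 ± 0.09 (adjusted p = 2.0e-10). The lambda V sum went the other way, from 224 and 226 CPM to 85.3 and 84.1 (log2 -1.41 ± 0.09, adjusted p = 7.28e-08). Iglc2 stood at 545 and 478 CPM in lymphoma and at 569 and 626 in doubly activated libraries, which did not pass (log2 -0.22 ± 0.10, adjusted p = 0.0776). The Iglc2 difference passed without lymphoma library 1, at -0.33, and in DESeq2, at -0.23 (adjusted p = 0.0389).

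Among precursors, kappa totals did not differ detectably while lambda V segments did. Igkc stood at 670 and 755 CPM in control libraries, 770 and 672 in NF-kB-activated and 699 and 665 in doubly activated libraries, so the groups overlapped. The Iglv sum was 77.5 and 81.3 CPM in control libraries, 213 and 222 in NF-kB-activated and 224 and 226 in doubly activated libraries. It rose by a log2 value of 1.45 ± 0.09 with NIK (edgeR, adjusted p = 4.48e-07) and of 1.5 ± 0.09 with both alleles (adjusted p = 3.75e-07), and the direct difference between the activated groups was 0.05 ± 0.09 (adjusted p = 0.771). For Igkv the log2 difference from control was 0.11 ± 0.08 in NF-kB-activated (adjusted p = 0.437) and 0.04 ± 0.08 in doubly activated cells (adjusted p = 0.835).

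**Figure D1:**
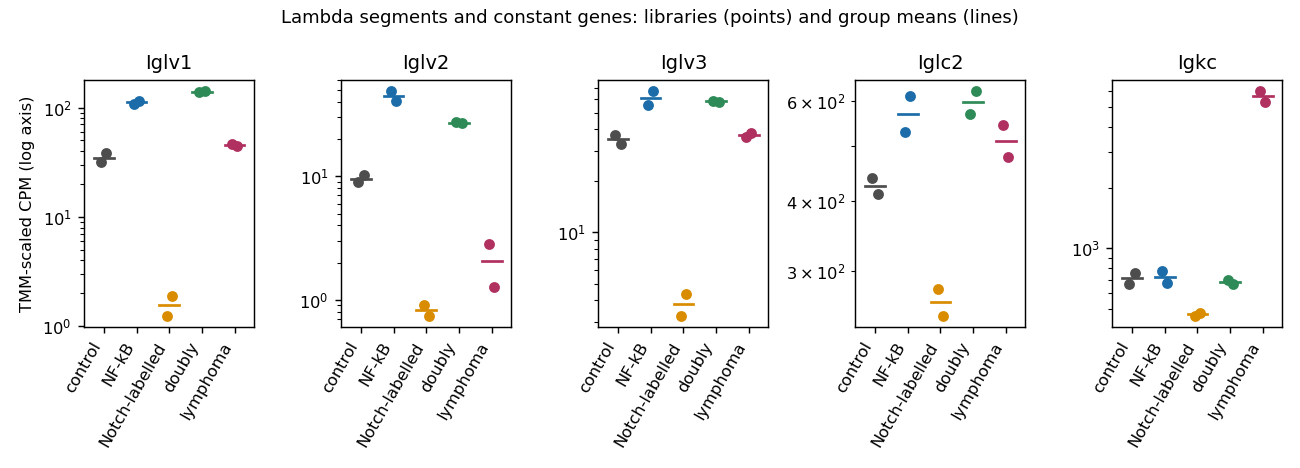
TMM-scaled CPM (log axis, scales differ between panels) of the 3 lambda V segments, Iglc2 and Igkc in the 2 libraries of each group (points) with the group mean (line). Iglv1, Iglv2 and Iglv3 are higher in both NF-kB-activated and both doubly activated libraries than in either control library, and Igkc stands at 6016 and 5324 CPM in lymphoma, above all other libraries.

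Each lambda V segment was higher in both activated groups than in control, though the split of counts between Iglv1 and Iglv2 is uncertain. Iglv1 stood at 31.6 and 38.2 CPM in control libraries, 109 and 114 in NF-kB-activated, 138 and 142 with both alleles, 46.5 and 44.9 in lymphoma and 1.25 and 1.88 in Notch-labelled libraries. Neither activated group overlapped with control, and the log2 change was 1.67 ± 0.11 with NIK (edgeR, adjusted p = 7.64e-07) and 2.0 ± 0.11 with both alleles (adjusted p = 2.13e-07). Iglv2 stood at 9.04 and 10.2 CPM in control libraries, 49.2 and 40.9 in NF-kB-activated, 27.5 and 26.8 in doubly activated, 2.82 and 1.27 in lymphoma and 0.900 and 0.742 in Notch-labelled libraries. Its log2 change was 2.23 ± 0.22 with NIK (adjusted p = 3.22e-05) and 1.5 ± 0.22 with both (adjusted p = 5.19e-04), so it was highest in the NF-kB-activated pair. Iglv3, which shares no 31-base word with the other lambda segments, stood at 36.9 and 32.9 CPM in control libraries, 55.6 and 67.0 in NF-kB-activated and 58.7 and 58.0 in doubly activated libraries. Its log2 change was 0.81 ± 0.12 with NIK (adjusted p = 6.67e-04) and 0.74 ± 0.12 with both (adjusted p = 0.00107). These 6 calls held with each library left out in turn.

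The mix of lambda V segments differed between groups as well. Iglv1 held 40.7% and 47.0% of lambda V counts in control libraries, 50.9% and 51.3% in NF-kB-activated and 61.5% and 62.5% in doubly activated libraries, with the ranges apart. Iglv2 held 23.1% and 18.5% in NF-kB-activated libraries and 11.7% to 12.5% in control and doubly activated ones. Between the activated groups, Iglv2 was lower in doubly activated cells (log2 -0.73 ± 0.21, edgeR adjusted p = 0.0361), a call that was lost without any 1 of the NF-kB-activated, Notch-labelled or doubly activated libraries (adjusted p = 0.0569 to 0.234). Iglv1 was higher there by 0.33 ± 0.10 and did not pass (adjusted p = 0.0547), but passed in DESeq2 (0.0434) and in a fit of the compared groups alone (0.0143). Iglv3 held 26.2% and 25.6% in doubly activated and 47.6% and 40.5% in control libraries.

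Of the lambda constant genes only Iglc2 was analysed, and it changed less than the lambda V segments. Iglc2 stood at 440 and 411 CPM in control libraries, 530 and 612 in NF-kB-activated and 569 and 626 in doubly activated libraries, with both activated groups above control. Its log2 change was 0.43 ± 0.10 (edgeR, adjusted p = 0.0119) and 0.49 ± 0.10 (adjusted p = 0.0041). The first call was lost without control library 2 (adjusted p = 0.0618) or NF-kB-activated library 2 (0.145), and the second without doubly activated library 2 (0.0502). Per Iglc2 count there were 0.176 and 0.198 lambda V counts in control libraries, 0.403 and 0.362 in NF-kB-activated, 0.393 and 0.362 in doubly activated, 0.157 and 0.176 in lymphoma and 0.0194 and 0.0279 in Notch-labelled libraries. For kappa, the same quotient of Igkv over Igkc counts stayed between 0.773 and 1.11 in all 10 libraries. The Iglc2 transcript in the files is 606 bases long, and its first exon of 154 bases holds 116 bases of unrearranged sequence before the 38 bases of the Iglj2 segment. It shares 106 of its 576 words of 31 bases with the annotated Iglc3 and 0 with Iglc1 or Iglc4. RNA of the Iglc1 and Iglc4 constant genes would thus be missed by these counts and by ratios taken from them. Which RNA the Iglc2 counts came from was not tested.

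The kappa to lambda ratio therefore depended on the genes it was taken from, though its order among the precursor groups did not. Igkc counts per Iglc2 count were 1.52 and 1.84 in control libraries, 1.45 and 1.10 in NF-kB-activated, 1.23 and 1.06 in doubly activated, 1.66 and 1.91 in Notch-labelled and 11.05 and 11.13 in lymphoma libraries. Igkv counts per Iglv count were 9.02 and 8.71, 3.81 and 3.21, 3.31 and 3.10, 73.6 and 53.1, and 70.1 and 70.2 in the same order. On both scales control lay above both activated groups and lymphoma above all precursors, but only the V segments set the Notch-labelled libraries apart from control. The exact permutation test of the constant gene ratio over the 945 splits gave p = 0.0116 (0.0148 adjusted over the 4 tests), and that of the V segment ratio p = 0.00847. For the 6 libraries of doubly activated, NF-kB-activated and control cells, p was 0.133 for the V ratio and 0.200 for the constant ratio, where 15 splits allow no p below 0.0667. In TPM, which accounts for transcript length, Igkc exceeded Iglc2 by 4.52 and 5.45 in control and by 32.8 and 33.0 in lymphoma libraries.

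As a share of all V counts, lambda made up 9.98% (95% Wilson interval 9.47% to 10.5%) and 10.3% (9.82% to 10.8%) in control. It made up 20.8% (20.2% to 21.4%) and 23.8% (23.2% to 24.4%) in NF-kB-activated libraries, and 23.2% (22.6% to 23.9%) and 24.4% (23.7% to 25.1%) in doubly activated ones. The Notch-labelled libraries held 1.34% (1.11% to 1.62%) and 1.85% (1.57% to 2.17%), and lymphoma 1.41% (1.34% to 1.47%) and 1.40% (1.34% to 1.47%). Intervals cover counting error only. Both activated precursor groups thus carried more than 20% lambda, control about 10% and the remaining groups under 2%.

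**Figure D2:**
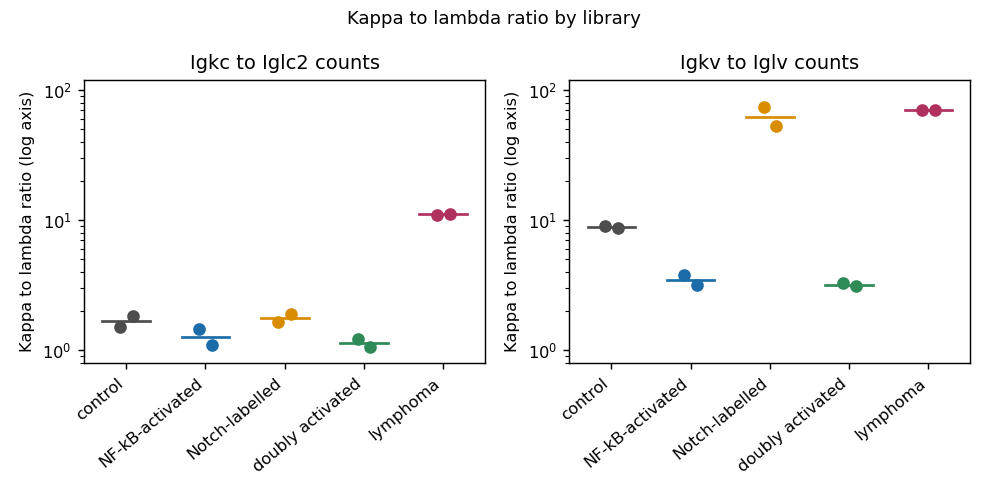
Kappa to lambda ratio (log axis) in the 2 libraries of each group (points) with the geometric mean (line), from constant gene counts on the left and from V segment counts on the right. Control lies above the NF-kB-activated and doubly activated libraries in both panels, and the Notch-labelled libraries join lymphoma near 53 to 74 on the right only.

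Kappa V use was broad in the 3 precursor groups and narrow in the other 2. The effective number of Igkv segments, the inverse Simpson index, is the number of equally used segments that would give the same concentration. It was 36.6 and 39.5 in control libraries, 35.8 and 38.5 in NF-kB-activated and 36.4 and 35.0 in doubly activated libraries, which overlapped. It was 1.16 and 1.13 in Notch-labelled and 1.21 and 1.19 in lymphoma libraries, where 1 segment held over 90% of the counts. That segment was the same in both libraries of a group. Whether both came from 1 lineage or 1 animal was not tested, so p-values for these groups cannot be read as spread between animals. Between 13 and 15 segments were needed to reach 50% of Igkv counts in each precursor library. The exact permutation test over 945 splits gave p = 0.0148 (0.0148 adjusted). Without the Notch-labelled pair it gave 0.0571. Among the 6 precursor libraries it gave 0.400, but the 15 splits there allow no p below 0.0667, so that test cannot pass.

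**Figure D3:**
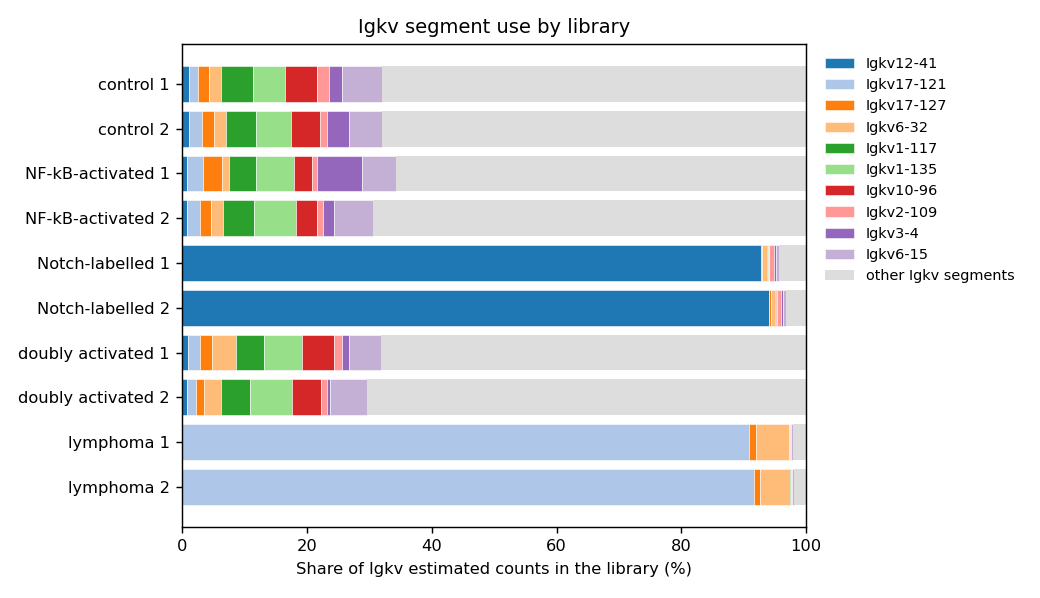
Share of Igkv estimated counts (%, horizontal axis) in each of the 10 libraries (bars), with the 10 segments named by share in colour and all other Igkv segments in grey. Igkv12-41 fills 92.7% and 94.1% of the Notch-labelled bars and Igkv17-121 fills 90.8% and 91.7% of the lymphoma bars, while no segment passes 7.14% in the other libraries.

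The most used segments of the precursors were the same few in each group. Igkv6-15 held 5.13% to 6.40% and Igkv1-135 5.13% to 6.71% of Igkv counts in all 6 libraries, and Igkv1-117 held 4.33% to 5.17%. Igkv10-96 held 5.11% and 4.56% in control libraries, 2.96% and 3.34% in NF-kB-activated and 5.24% and 4.77% in doubly activated libraries. Igkv3-4 differed most between libraries of 1 group. It held 7.14% in NF-kB-activated library 1, the highest share there, and 1.89% in library 2, against 2.15% and 3.43% in control and 1.17% and 0.554% in doubly activated libraries.

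Few single kappa segments were called with NIK. Of the 112 members, 89 passed the filter on low counts and were tested, namely 84 Igkv genes, Igkc, the 3 Iglv genes and Iglc2. Of the others, the 5 Igkj genes, which are 36 to 43 bases long, and 3 Igkv genes had no count in any library. Against control, 3 of the 84 Igkv genes rose and 2 fell in NF-kB-activated cells, and all 4 tested lambda genes rose. Over all genes 15.3% were called in this comparison, 8.72% higher and 6.6% lower, so the share of called Igkv genes was below the background. Log2 changes of the Igkv genes ran from -1.187 to 1.545. Many of them stood at a few CPM, where changes are harder to detect, so few calls do not show little movement. The median log2 change of the 89 members was 0.20, against 0 over all 15583 genes tested.

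Igkv12-44 fell with NIK from 18.6 and 16.1 CPM to 9.44 and 8.91 (log2 -0.92 ± 0.16, edgeR adjusted p = 0.00215), and stood at 20.1 and 17.6 in doubly activated libraries, above NF-kB-activated ones by 1.04 ± 0.16 (adjusted p = 0.00158). Both calls held with each library left out. Igkv4-57-1 rose with NIK from 2.52 and 4.13 CPM to 11.2 and 8.28 (log2 1.54 ± 0.38, adjusted p = 0.0152). Igkv4-91 rose from 6.40 and 5.71 to 11.6 and 19.1 CPM and Igkv4-68 from 3.14 and 3.48 to 7.81 and 6.76 CPM. Igkv13-84 fell from 9.41 and 9.85 to 4.98 and 5.13 CPM, and its call was also lost in DESeq2 (adjusted p = 0.0533), without the filter on low counts (0.0685) and without any 1 doubly activated or lymphoma library (0.0553 to 0.0675). Groups did not overlap for any of these 5 segments, but this was a condition for naming them and adds no evidence. The calls of the latter 4 were lost in at least 1 fit with a library of the compared groups left out.

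With both alleles, 4 Igkv genes rose and 3 fell against control, and the 4 tested lambda genes rose again, where 19.8% of all genes were called, 10.5% higher and 9.3% lower. The median of the 89 members was 0.03, against 0 over all genes. Igkv8-24 rose from 18.02 and 13.55 CPM to 25.1 and 33.3 (log2 0.89 ± 0.18, edgeR adjusted p = 0.00391), Igkv2-137 from 14.1 and 12.4 to 21.3 and 24.7 (0.80 ± 0.18, adjusted p = 0.00687) and Igkv4-68 to 8.02 and 8.57 CPM. Igkv6-32 rose from 13.5 and 14.6 to 28.4 and 19.3 CPM (0.77 ± 0.20, adjusted p = 0.0221). Igkv5-43 fell from 18.6 and 19.7 to 12.0 and 9.22 CPM, Igkv5-48 from 8.06 and 11.2 to 3.17 and 1.70 and Igkv14-100 from 6.27 and 4.62 to 1.11 and 1.37. Each of these 7 calls was lost when 1 library of the compared groups was left out, and without doubly activated library 2 only 4 of the 89 members were called. The 2 activated comparisons share the control libraries.

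Doubly activated cells were also compared with NF-kB-activated cells, from which they differ by the Rosa-Notch2ICN allele. Of the 89 members 3 rose and 6 fell, and 13.9% of all genes were called, 6.62% higher and 7.28% lower. The median was -0.07, against 0 over all genes. Without both Notch-labelled libraries 7 members were called. Igkv6-32 rose from 9.17 and 12.7 CPM to 28.4 and 19.3 (log2 1.13 ± 0.20, edgeR adjusted p = 0.00575). Igkv10-96 rose from 24.1 and 23.7 to 38.7 and 33.5 CPM (0.60 ± 0.18, adjusted p = 0.0429), a call lost with library size alone (0.0674), without both Notch-labelled libraries (0.0553), without either of them (0.0707 and 0.0689) and without any 1 library of the compared groups (0.112 to 0.211). Igkv16-104 fell from 32.7 and 22.5 to 15.7 and 13.2 CPM, Igkv5-39 from 12.6 and 8.80 to 3.56 and 3.21, Igkv4-57-1 from 11.2 and 8.28 to 3.73 and 3.21 and Igkv14-100 from 4.77 and 7.49 to 1.11 and 1.37. The call of Igkv6-32 held with each library left out, while those of the other 5 segments in this paragraph were each lost in at least 1 such fit. The count of called members fell to 2 without NF-kB-activated library 1 or without doubly activated library 2 and to 4 without doubly activated library 1.

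Gene families of the locus gave a coarser view that does not depend on how reads were split between close relatives. The Igkv8 family held 7.99% and 9.04% of Igkv counts in control libraries, 9.89% and 10.2% in NF-kB-activated and 13.0% and 14.5% in doubly activated libraries. Igkv5 held 5.01% and 5.34% in control and 2.88% and 2.29% in doubly activated libraries, and Igkv12 held 5.78% and 5.21%, 3.62% and 3.15%, and 4.94% and 4.66% in control, with NIK and with both alleles. Igkv1, the largest or second largest family in these 6 libraries, stayed between 14.8% and 16.0%. These families were picked after their values were seen and are a description.

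Position along the locus was similar in the 3 precursor groups. The 34 segments farthest from Igkc, 1957 to 3170 kb away, held 43.7% to 47.2% of Igkv counts in those 6 libraries. The middle 34, at 902 to 1919 kb, held 16.8% to 20.3%, and the nearest 34, at 22.3 to 868 kb, held 35.5% to 39.3%. Segments on the strand opposite to Igkc, which are joined by inversion, held 51.1% and 52.2% in control libraries, 48.7% and 52.9% in NF-kB-activated and 55.7% and 56.5% in doubly activated libraries. Igkv12-41 lies 868 kb from Igkc on the opposite strand, and Igkv17-121 lies 2689 kb away on the same strand.

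**Figure D4:**
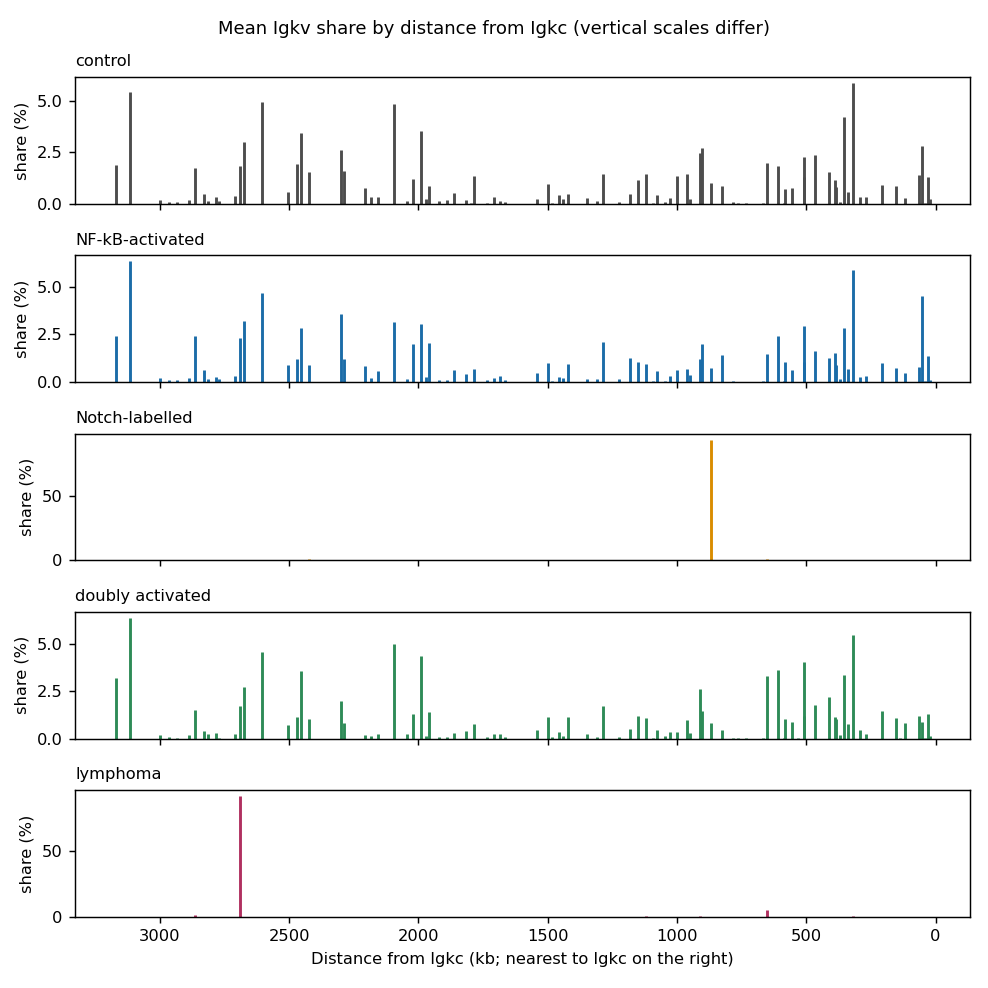
Mean share of Igkv counts (%, vertical scales differ) of each segment against its distance from Igkc in kb, with Igkc on the right, for the 5 groups. Segments across the whole locus are used in the doubly activated, NF-kB-activated and control libraries, and 1 segment, 868 kb away in Notch-labelled and 2689 kb away in lymphoma, stands alone in the other groups.

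The V segment profiles of a pair resembled each other more than those of other pairs. The Bray-Curtis distance between Igkv shares, 0 for identical and 1 for disjoint use, was 0.111 within control, 0.130 within NF-kB-activated, 0.0947 within doubly activated, 0.0232 within Notch-labelled and 0.0109 within lymphoma libraries. Between control and NF-kB-activated libraries it averaged 0.167 and between control and doubly activated ones 0.159. Notch-labelled and lymphoma libraries lay at least 0.902 from every other group, and from each other 0.972 to 0.975. The mean within labelled pairs was 0.0740 against 0.631 over all pairs, and an exact permutation test over 945 splits, one-sided for a smaller value, gave p = 0.00106, the smallest it can give (0.00212 adjusted). For the 6 precursor libraries the test gave 0.0667, again the smallest possible with 15 splits.

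In the Notch-labelled libraries, Igkv12-41 rose from 7.26 and 7.13 CPM in control to 368 and 348 (log2 5.64 ± 0.12, edgeR adjusted p = 3.46e-11) while nearly all other members fell. Of the 89 tested members 87 fell, 1 rose and 1 did not pass, where 63.7% of all genes were called, 34.2% higher and 29.5% lower. The median was -4.99, against 0.07 over all genes. The fall included Iglv1 (log2 -4.47 ± 0.16, adjusted p = 7.44e-10), Iglv3, from 36.9 and 32.9 to 3.25 and 4.35 CPM, Igkc, from 670 and 755 to 463 and 479 CPM, and Iglc2, from 440 and 411 to 279 and 250 CPM. The fold changes of Igkc and Iglc2 were thus far smaller than the median of the members. The sum of the B cell markers above was also lower in these libraries. Pax5 among them was higher, at 410 and 378 CPM against 251 and 256 in control.

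Several kappa segments were close to absent there. Igkv13-84 had 1 count over both Notch-labelled libraries and 334 over both control libraries, a depth-adjusted ratio of 388 with an exact interval of 69.1 to 15370, which like those that follow covers counting error only. Igkv5-48 had 3 against 336 counts (ratio 130, 44.1 to 634), Igkv4-72 had 2 against 243 (141, 38.6 to 1172) and Igkv5-39 had 2 against 203 (118, 32.2 to 980). Igkv17-121, the leading lymphoma segment, stood at 0.150 and 0.0989 CPM against 10.6 and 15.5 in control. Next after Igkv12-41 came Igkv2-109 with 0.805% and 0.614% and Igkv6-32 with 0.755% and 0.627% of Igkv counts.

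In lymphoma, Igkv17-121 stood at 5428 and 5411 CPM against 14.9 and 10.3 in doubly activated libraries, 428 times as high (log2 8.74 ± 0.25, edgeR adjusted p = 6.88e-09). Igkv6-32 stood at 316 and 285 CPM against 28.4 and 19.3 (3.65 ± 0.19, adjusted p = 1.81e-07) and held 5.28% and 4.83% of Igkv counts in both libraries. Igkv17-127 stood at 66.8 and 57.6 CPM against 13.3 and 8.90 (2.48 ± 0.30, adjusted p = 1.36e-04) and Igkv4-55 at 38.2 and 32.1 against 8.13 and 7.33 (2.18 ± 0.34, adjusted p = 4.91e-04). Igkv17-127 is the near-identical relative shown above, whereas Igkv6-32 shares no more than 2.08% of its words with any listed relative. With Igkc these were the 5 members that rose. Another 73 fell and 11 did not pass, where 51.3% of all genes were called, 26.1% higher and 25.2% lower, and the median was -2.96 against 0.01 over all genes.

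The falls covered 70 Igkv genes and all 3 lambda V segments. Igkv19-93 fell from 30.9 and 31.7 CPM to 1.30 and 1.66 (log2 -4.40 ± 0.18, edgeR adjusted p = 2.05e-09), Igkv9-120 from 21.3 and 17.9 to 0.648 and 1.03, Igkv8-21 from 13.8 and 17.6 to 0.185 and 0.44 and Igkv8-27 from 5.12 and 7.46 to 0.185 and 0.0489. Igkv2-112 had 166 counts over both doubly activated libraries and 0 in lymphoma, at least 70.04-fold lower against a floor of 3 counts over the group. Iglv2 fell from 27.5 and 26.8 to 2.82 and 1.27 CPM (-3.72 ± 0.26, adjusted p = 2.15e-07), Iglv1 by a log2 value of -1.61 ± 0.11 (adjusted p = 1.15e-07) and Iglv3 from 58.7 and 58.0 to 35.9 and 37.9 CPM (-0.66 ± 0.12, adjusted p = 6.38e-04).

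**Figure D5:**
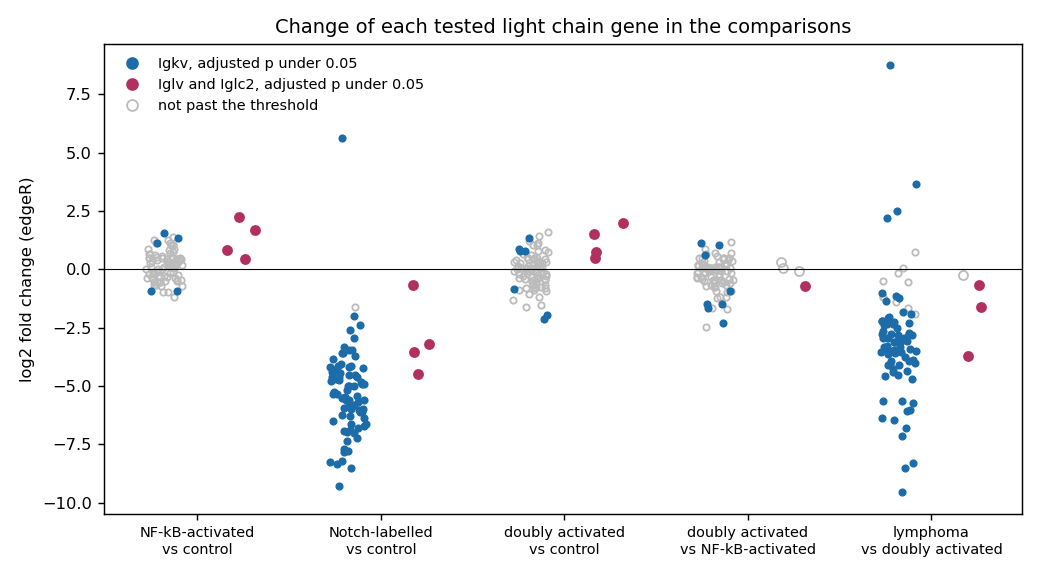
Log2 fold change (vertical axis) of each tested Igkv gene (left of each pair of clouds) and of Iglv1 to Iglv3 and Iglc2 (right) in the 5 comparisons, filled where the adjusted p was under 0.05. Most Igkv genes are open symbols on either side of 0 in the comparisons among precursors, all 4 lambda genes lie above 0 against control in both activated groups, and most genes lie below 0 in the Notch-labelled and lymphoma comparisons.

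Behind the leading segments, a low level of many others remained. Leaving out the Igkv12 and Igkv17 families and Igkv6-32, 92 Igkv segments summed to 25.6 and 18.6 CPM, here without TMM scaling, in Notch-labelled and 136 and 122 in lymphoma libraries, against 617 and 622 in control. They made up 6.08% and 4.67% of Igkv counts in the Notch-labelled and 2.44% and 2.16% in the lymphoma libraries. Igkv4-55, called higher in lymphoma above, is among them and held 826 and 657 of their 3152 and 2613 counts in lymphoma. The part of Igkv4-55 in the values that follow was not tested. Across these 92 segments, Pearson's r with the control profile was 0.604 and 0.600 for Notch-labelled, 0.387 and 0.395 for lymphoma and 0.879 to 0.945 for NF-kB-activated and doubly activated libraries, and 0.961 between both control libraries. The Bray-Curtis distance from the control profile was 0.325 and 0.368 for Notch-labelled, 0.438 and 0.4395 for lymphoma and 0.138 to 0.174 for the activated precursors, against 0.116 between controls. By ranks, Spearman's rho was 0.774 and 0.762 for Notch-labelled, 0.816 and 0.780 for lymphoma and 0.928 to 0.956 for NF-kB-activated and doubly activated libraries, and 0.964 between both control libraries. Segments are not independent replicates and share transcript length and mappability, so these values are a description. Their source was not tested.

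Other genes of light chain assembly and use were counted from a list of 50, of which 47 were tested. Against control, 7 rose and 7 fell with NIK, 19 rose and 23 fell in Notch-labelled libraries, and 7 rose and 8 fell with both alleles, where 15.3%, 63.7% and 19.8% of all genes were called. Doubly activated against NF-kB-activated cells gave 5 and 5, and lymphoma against doubly activated cells 17 and 17, where 13.9% and 51.3% of all genes were called. With NIK, Pou2af1, which encodes the coactivator of octamer-binding factors at immunoglobulin promoters, rose from 493 ± 24.7 CPM (SD, n = 2) to 1432 ± 95.5 (log2 1.54 ± 0.09, edgeR adjusted p = 2.17e-07). Nfkb2, the precursor subunit processed downstream of NIK, rose from 322 ± 47.2 to 619 ± 0.778 CPM (adjusted p = 2.48e-05), and Mzb1, a chaperone cofactor for immunoglobulin, from 158 to 236 CPM (adjusted p = 0.001). Vpreb3, related to the surrogate light chain, fell from 32.2 ± 1.33 to 12.2 ± 1.96 CPM (adjusted p = 1.77e-05). With both alleles Pou2af1 (log2 1.22) and Nfkb2 (1.05) rose and Vpreb3 (-1.53) fell too, and the mismatch repair gene Msh6 fell by 0.84 on the log2 scale.

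None of the 12 recombination genes passed in NF-kB-activated against control or in doubly against NF-kB-activated cells. Of all genes 15.3% and 13.9% were called there. In doubly activated cells against control 1 recombination gene fell, where 19.8% of all genes were called. Rag1 and Rag2, which are among the 12, stood at 0.381 CPM or less in these groups, where a change is hard to detect. In Notch-labelled libraries against control 6 of the 12 rose and 5 fell, where 63.7% of all genes were called. In lymphoma against doubly activated cells 2 rose and 3 fell, where 51.3% were called. The surrogate light chain genes Igll1 and Vpreb1 were at 0 in all 10 libraries. Between doubly and NF-kB-activated cells Irf4, a factor that acts at the light chain enhancers, rose from 203 ± 11.9 to 496 ± 98.4 CPM (log2 1.29 ± 0.14, edgeR adjusted p = 2.10e-04). Rel rose by 0.87, while Pou2f1 (-0.63) and Msh6 (-0.51) fell.

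In the Notch-labelled libraries the 4 list genes with the smallest p all fell. They were the B lineage factors Ebf1, from 332 to 46.0 CPM, and Foxo1, from 272 to 40.7 CPM, and the receptor partners Cd79b (log2 -1.74) and Cd79a (-1.57). The terminal transferase gene Dntt, which adds bases at joints of rearranging antibody gene segments, stood at 34.5 and 44.0 CPM there. The 6 markers of immature B cells, Dntt among them, summed to 43.6 and 56.1 CPM against 0.720 to 6.58 in the other libraries. Most of the Notch-labelled sum was Dntt. Rag1 stood at 1.3 and 2.3 CPM there, Rag2 at 1.2 and 2.1 and Il7r at 6.6 and 7.7 (5.1 and 5.9 in control). Igll1 and Vpreb1 were at 0.

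In lymphoma the secretion group moved with Igkc, with 5 of 6 genes higher and 0 lower, where 26.1% of all genes were higher. Xbp1, the factor that expands the secretory apparatus, rose from 72.4 ± 3.38 to 666 ± 4.38 CPM (log2 3.20 ± 0.09, edgeR adjusted p = 8.85e-11), Derl3, of endoplasmic reticulum quality control, by 5.14 ± 0.15 (adjusted p = 2.11e-10) and Mzb1 by 1.86 ± 0.09 (adjusted p = 1.1e-08). Vpreb3 rose from 11.2 to 233 CPM, the reverse of its change with NIK. The 7 plasma cell markers, which include these secretion genes, summed to 2165 and 2077 CPM in lymphoma against 443 and 447 in doubly activated libraries. Among them Prdm1 rose from 17.8 and 20.1 to 141 and 162 CPM and Sdc1 from 2.34 and 2.09 to 14.7 and 14.0 CPM (log2 2.69 ± 0.63, adjusted p = 0.00749 in edgeR). Jchain stood at 46.9 and 44.9 CPM against 66.2 and 65.5 and did not pass (adjusted p = 0.534), and Tnfrsf17, which was too low to test, at 0.370 and 0.293. The part of plasma cell differentiation in the kappa rise was not tested.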

How the data were processed

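Tool and build listed in the submitters' processing notes are kallisto 0.44.0 and mm10, and the sources used here give no transcript release. Per the file headers, the authors deposited estimated counts and TPM for 88198 transcripts per library. Of these, 86031 matched GENCODE M21 (GRCm38) by identifier and were summed to 30205 genes; the other 2167 held 1.09% to 1.38% of counts and were left out. Sums were rounded and tested with edgeR 4.0.16 (R 4.3.3): filterByExpr (minimum count 10, minimum total 15) left 15583 genes, scaled by TMM, in 1 robust quasi-likelihood fit of 5 groups with 5 residual degrees of freedom. Tests were two-sided, with Benjamini-Hochberg adjustment over all genes and calls at 0.05. CPM are TMM-scaled. Class sums replaced the members in a second fit. Shares and ratios use unrounded counts. The fit was tested on simulated data.

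Chi-square per degree of freedom between libraries of a group was 3.06 to 14.6 over members, so no pair agreed within counting error. Members and lists were chosen with earlier results of these data known. Named were all constant, J and lambda genes; the 3 top Igkv segments per group and any with 5% of its class; per comparison up to 5 rises and 5 falls (called, mean of at least 5 CPM, no overlap) and 4 list genes by p. Families, and Dntt and single marker genes, were picked after their values were seen. Alternatives were other scalings, no filter, DESeq2 1.42.0, the compared groups alone, TPM, families, the replicate number as a block and leaving out single libraries; leaving out both Notch-labelled libraries was added after seeing the data.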

Additional observations from a re-analysis of the deposited data

How the results depend on the processing

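The Iglv rises against control and the kappa rise in lymphoma kept their direction and call in every fit run. The kappa to lambda ratio in control, NF-kB-activated, Notch-labelled, doubly activated and lymphoma libraries was 8.86, 3.49, 62.5, 3.20 and 70.2 from V counts and 4.96, 3.75, 5.29, 3.39 and 32.9 from constant gene TPM. With TPM the light chain share was 1.44%, 1.67%, 0.885%, 1.48% and 8.54%, and the effective number in doubly activated libraries 37.4. Over families that number was 10.5, 10.3 and 9.56 in control, with NIK and with both alleles and 1.17 in lymphoma. Its permutation p was 0.0571 without both Notch-labelled libraries, and that of the profile distance 0.0667 for 6 libraries, the smallest possible there.

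Leaving out 1 library at a time, called members numbered 4 to 12 in doubly activated against control and 2 to 11 against NF-kB-activated cells, where the compared groups alone gave 14. Log2 class changes ranged from 0.32 to 0.53 for Iglc with NIK (lost without control 2 or NF-kB-activated 2) and from -0.33 to -0.14 for Iglc in lymphoma. Uncalled class changes that turned sign ranged from -0.0816 to 0.113 for Igkc with NIK and, with both alleles, from -0.148 to 0.0302 for Igkc and from -0.003 to 0.075 for Igkv. Between doubly and NF-kB-activated cells they ranged from -0.183 to 0.0113 for Igkc, -0.180 to 0.0123 for Igkv and -0.0437 to 0.166 for Iglc. In the fit of single genes, uncalled changes ranged from -0.0821 to 0.113 for Igkc with NIK and -0.148 to 0.0222 with both, and, between the activated groups, from -0.183 to 0.0119 for Igkc, -0.0431 to 0.167 for Iglc2 and -0.2074 to 0.0627 for Iglv3. With library size alone, Igkv with both alleles was -0.0336, and doubly against NF-kB-activated Iglc (and Iglc2) was -0.0049 and Iglv -0.0209. Igkc with NIK was -0.0093 with relative log expression scaling and -0.009 in DESeq2.

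Replicate numbers did not pair the libraries: deviations of same-numbered libraries correlated at r = -0.107 to 0.086 in 10 pairs of groups over 10376 genes. With the number as a replicate block, called members were 8, 88, 11, 8 and 78, in the order NIK, Notch-labelled and both alleles against control, doubly against NF-kB-activated and lymphoma, against 9, 88, 11, 9 and 78 without it. With NIK the block lost Igkv13-84 (adjusted p = 0.0735). With library size alone, the median of all genes moved from 0.07 to 0.17 in Notch-labelled against control.

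Each group had 2 libraries, so a comparison of 2 groups on a single value cannot pass by permutation. Short Igkj transcripts had no counts. Segments under 10 counts per library carry little precision.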
